A study of Caenorhabditis elegans with 21 samples.

Results

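The genes described here are 9 nuclear genes of the mitochondrial protein quality control of Caenorhabditis elegans, chosen by name from the 46254 gene IDs of the deposited table. They are the chaperone genes hsp-6, hsp-60 and dnj-10, the protease genes clpp-1, lonp-1, spg-7 and ymel-1, the transcription factor gene atfs-1, and Y22D7AL.10 (WBGene00021248), a gene that the annotation used here names by its sequence only and that the selection placed beside hsp-60. All 9 passed the filter for testing (1 FPKM or more in 3 libraries or more), as 17492 genes did. FPKM are a fragment count scaled to transcript length and to the total of the library, so levels can be set side by side between genes.

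Whole-worm mRNA of the wild-type strain N2 was sequenced in 21 libraries, 3 for each of 7 groups, from day 1 adults kept at 20 °C with E. coli OP50 as food. The starvation group spent the last 15 h on plates without food (libraries 1, 2 and 3). From L4 until the next day, the drug groups were on plates with the phenothiazine antipsychotic fluphenazine at 200 µM (libraries 2, 4 and 9), the protein phosphatase inhibitor cantharidin at 200 µM (1, 3 and 9), or the proteasome inhibitor bortezomib at 10 µM (7, 8 and 9) or 25 µM (3, 4 and 6). The RNAi group was under RNAi against rpn-6, a subunit gene of the proteasome's regulatory particle, from L3 (4, 5 and 6). The controls were untreated (4, 6 and 7). The labels name neither vehicle-treated worms nor worms on empty-vector RNAi, so a treatment cannot be told apart from its vehicle or from RNAi feeding. Whether libraries of 1 group came from different cultures is not stated, so p-values measure the spread between these samples, which may be technical.

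Mitochondria import most of their proteins unfolded, and matrix chaperones fold them while proteases of the matrix and the inner membrane remove those that fail. In worms, stress in this system raises a set of nuclear genes known as the mitochondrial unfolded protein response. Its transcription factor ATFS-1 is imported into healthy mitochondria and degraded there, and reaches the nucleus when import is impaired. hsp-6 and hsp-60 are the genes most used as reporters of this response.

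Relative depth, read from the steps between low values, ran from 0.949 to 1.52 of control 4; absolute depth is not given in the sources used here, and no member was listed at 0. Within their own groups, control 7 (mean r = 0.938), fluphenazine 4 (0.891) and starvation 3 (0.843) correlated less well than the other libraries. Control 4 and control 6 were at 0.961 and 0.963. Starvation 1 (0.919), starvation 2 (0.899) and fluphenazine 9 (0.927) were also below control 7, so these 3 are not the lowest of all libraries. The RNAi target rpn-6.1 was at 115 to 127 FPKM in the rpn-6 RNAi libraries and at 130.2 to 168 FPKM in the controls. It was also at 112 to 122 FPKM in starvation, 105.0 to 153 in fluphenazine and 105 to 142 under cantharidin, so its level does not mark the RNAi group alone. In 10 and 25 µM bortezomib it was at 216 to 219 and 210 to 221 FPKM. Against control the median of all tested genes moved up, by log2 0.38 in starvation, 0.34 in fluphenazine, 0.34 under cantharidin, 0.31 in rpn-6 RNAi, 0.16 in 10 µM bortezomib and 0.40 in 25 µM bortezomib. A gene with a fold change of 0 therefore lay below most others, and the fits were repeated after median-of-ratios scaling or quantile normalization.

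Of the 54 comparisons of a member with control (9 genes, 6 treatments), 22 were called lower, 9 higher and 23 were not called. A call is an adjusted p under 0.05 in limma (log2(FPKM + 1), all 21 libraries in 1 fit, Benjamini-Hochberg over the 17492 genes); log2 fold changes carry their standard error, levels their SD, and n = 3 per group. In starvation 6 members fell and 2 rose, beside 57.5% of all tested genes called (18.4% lower and 39.1% higher). In fluphenazine 4 fell and 0 rose (43.8% called; 9.39% lower and 34.4% higher), and under cantharidin 4 fell and 1 rose (37.9% called; 5.96% lower and 31.9% higher). In rpn-6 RNAi 2 fell and 3 rose (36.7% called; 8.81% lower and 27.9% higher). In 10 µM bortezomib 1 fell and 1 rose (12.9% called; 3.24% lower and 9.61% higher), and in 25 µM bortezomib 5 fell and 2 rose (53.4% called; 11.1% lower and 42.3% higher). Rescaling also moved the background. Under median-of-ratios scaling 7 members fell in starvation (29.2% of all tested genes lower and 28.7% higher), 7 in fluphenazine (27.5% and 22.8%), 8 under cantharidin (19.8% and 19.2%), 3 in rpn-6 RNAi (15.1% and 15.7%), 3 in 10 µM bortezomib (8.22% and 5.12%) and 7 in 25 µM bortezomib (25.8% and 28.7%), and 0 rose in any treatment. With quantile normalization 6 members fell and 2 rose in starvation (26.2% and 19% of all tested genes), 5 and 0 in fluphenazine (22.3% and 13.5%) and 5 and 1 under cantharidin (16.5% and 10.2%). With that normalization 3 fell and 2 rose in rpn-6 RNAi (16% and 13.7%), 1 and 0 in 10 µM bortezomib (6.15% and 4.37%), and 7 and 0 in 25 µM bortezomib (28.6% and 19.7%).

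The counts also moved with single libraries. The share of all tested genes called with libraries left out was not computed. Counts in those settings, here and below, have no background beside them. Without control 7, fluphenazine 4 and starvation 3 together, 2 members rose and 5 fell in starvation, 0 and 7 in fluphenazine, 1 and 5 under cantharidin, 3 and 2 in rpn-6 RNAi, 3 and 1 in 10 µM bortezomib, and 2 and 6 in 25 µM bortezomib. Without control 6 alone the starvation calls numbered 4, and the 10 µM bortezomib calls numbered 0 without 10 µM bortezomib 7, 10 µM bortezomib 9 or control 7, and 1 without 10 µM bortezomib 8 or control 4.

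The median log2 fold change of the 9 genes was -0.26 in starvation, -0.19 in fluphenazine, -0.21 under cantharidin, 0.14 in rpn-6 RNAi, 0.12 in 10 µM bortezomib and -0.29 in 25 µM bortezomib, each below the all-gene median given above. By count, 9, 9, 8, 6, 5 and 9 of the 9 lay below that median in the same order of treatments. Across all 7 groups the F test called 9 of 9 members, as it did 77.3% of all tested genes. The members differed in how far they moved: group means spanned 3.83-fold for hsp-60, 2.68-fold for Y22D7AL.10, 2.05-fold for atfs-1, 1.59-fold for hsp-6, 1.55-fold for spg-7, 1.46-fold for ymel-1, 1.34-fold for lonp-1, 1.31-fold for clpp-1 and 1.23-fold for dnj-10. hsp-60 and Y22D7AL.10 stand apart from the other 7 genes in the plot of levels by library.

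**Figure D1:**
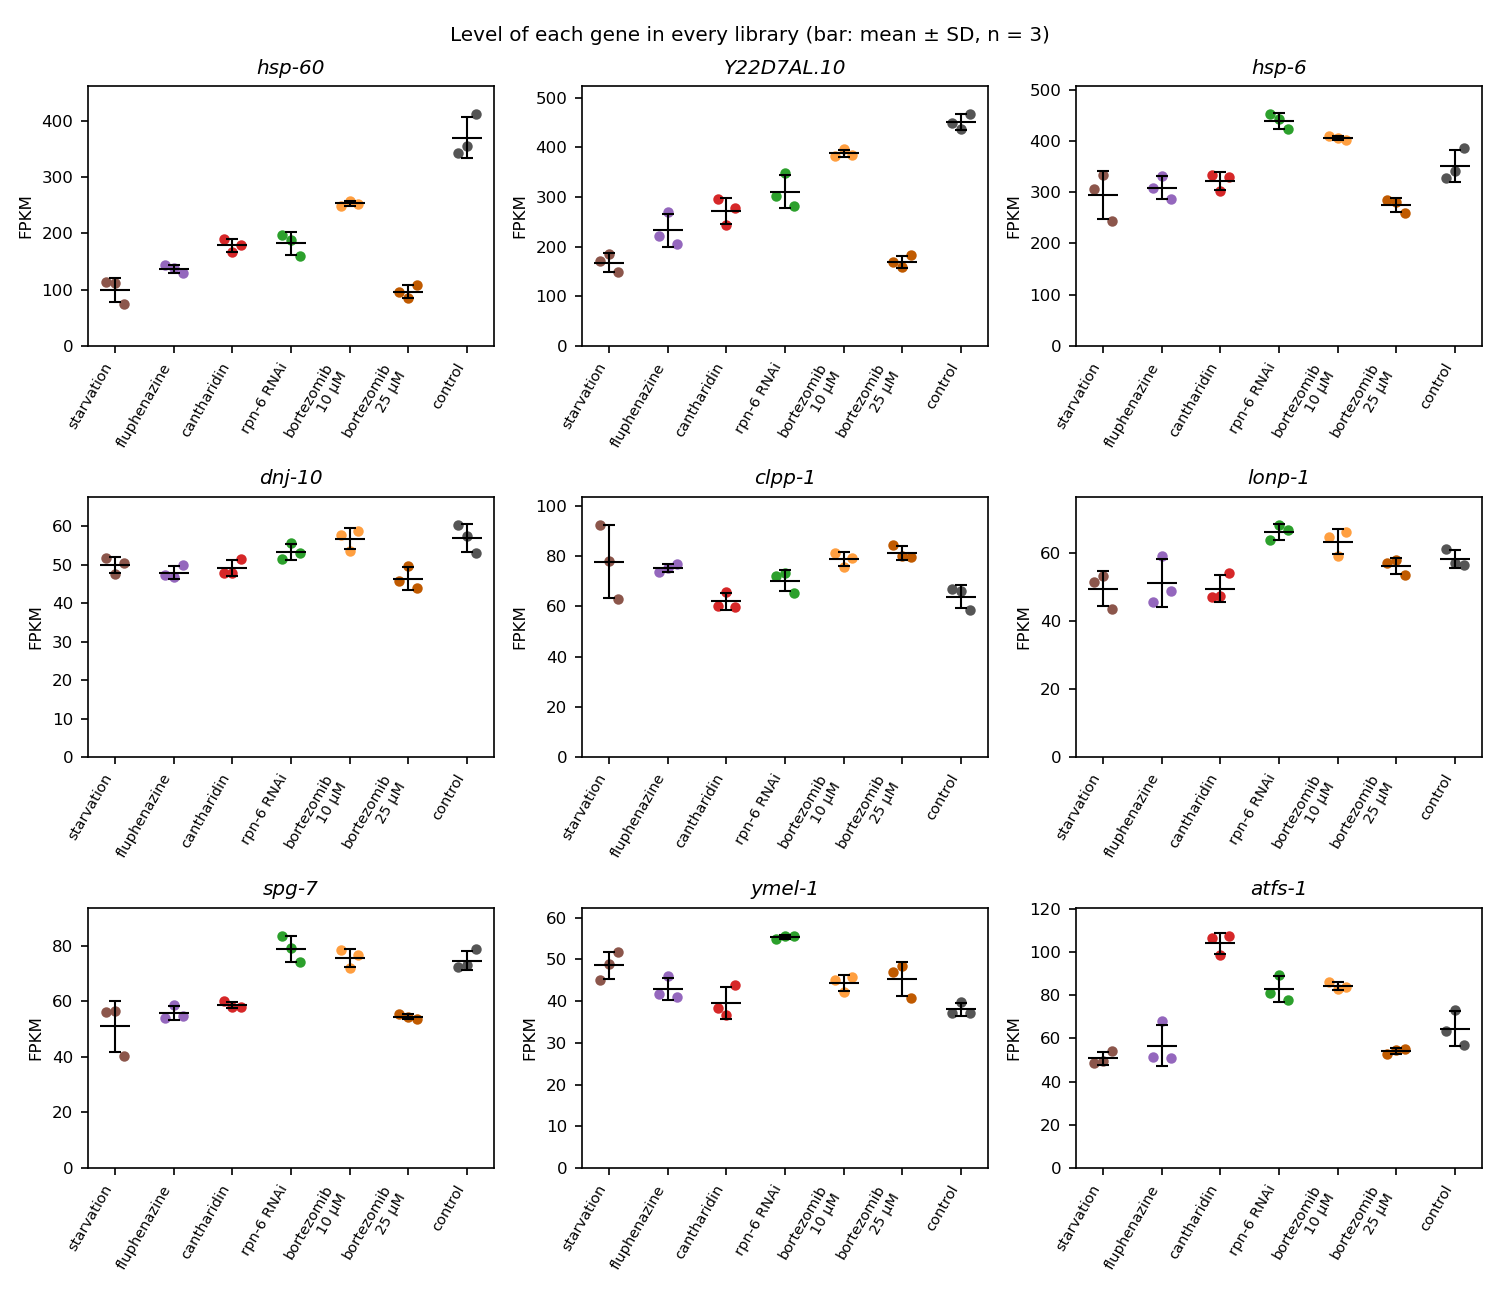
FPKM of each of the 9 genes (vertical axes, each starting at 0) in every library of the 7 groups (horizontal axes); points are libraries and bars the mean ± SD of 3 libraries. hsp-60 and Y22D7AL.10 are below every control in all 18 treated libraries, and atfs-1 is highest under cantharidin. As deposited, hsp-6 is above the controls in rpn-6 RNAi and 10 µM bortezomib, where median-of-ratios scaling turns its fold changes to -0.06 and -0.07.

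hsp-60 (WBGene00002025) encodes the mitochondrial chaperonin, the ring-shaped chamber in which matrix proteins fold. It had 113, 111 and 74.3 FPKM in the starvation libraries, 143, 139 and 129.9 FPKM in fluphenazine and 189.5, 167 and 180.1 FPKM under cantharidin, against 343, 354 and 412 FPKM in the controls. It had 198, 189 and 159.6 FPKM in rpn-6 RNAi, 249, 258 and 253 FPKM in 10 µM bortezomib and 96.3, 85.2 and 108 FPKM in 25 µM bortezomib. Every treated library lay below the lowest control, and the highest treated values, those of 10 µM bortezomib libraries, came closest to it. The share of all tested genes whose libraries do not overlap the controls was not computed. Between treatments it was 74.5% for 25 against 10 µM bortezomib and 61.4% for 25 µM bortezomib against rpn-6 RNAi. Statements of non-overlap with the controls, here and below, therefore only describe levels.

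The mean was 26.9% of control in starvation (log2 -1.90 ± 0.14, adjusted p = 2.68e-08 in limma), 37.1% in fluphenazine (-1.42 ± 0.14, 8.44e-07) and 48.4% under cantharidin (-1.04 ± 0.14, 2.20e-05). It was 49.2% of control in rpn-6 RNAi (-1.02 ± 0.14, adjusted p = 1.43e-05), 26.1% in 25 µM bortezomib (-1.93 ± 0.14, 1.04e-08) and 68.5% in 10 µM bortezomib (-0.54 ± 0.14, 0.0161). hsp-60 thus fell in 6 of 6 treatments, and it was also called lower in all 6 with median-of-ratios scaling (-0.82 to -2.38) and with quantile normalization. Without control 7, fluphenazine 4 and starvation 3 together, the fold changes ran from -0.46 in 10 µM bortezomib to -1.85 in 25 µM bortezomib, and all 6 were called. The call in 10 µM bortezomib was the least firm: with 10 µM bortezomib 7, 10 µM bortezomib 9 or control 7 left out singly, its adjusted p was 0.0593, 0.0548 and 0.0515.

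Few genes fell further. The share of tested genes with a lower fold change than hsp-60 was 2.39% in starvation, 1.60% in fluphenazine, 1.94% under cantharidin, 4.79% in rpn-6 RNAi, 5.79% in 10 µM bortezomib and 1.85% in 25 µM bortezomib. Ordered by level, 25 µM bortezomib and starvation were lowest and did not differ from each other beyond their spread (adjusted p = 0.904). Fluphenazine came next and differed from starvation (0.0439; 0.123 with median-of-ratios scaling), then cantharidin and rpn-6 RNAi, where neither step was called. 10 µM bortezomib was above rpn-6 RNAi (adjusted p = 0.0159) and below control.

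Y22D7AL.10 is the nearest protein-coding gene on one side of hsp-60 in the WBcel235 annotation, and the pair lie back to back on opposite strands. Its own role is not annotated in the tables used here. It had 170.5, 186 and 148 FPKM in starvation, 222, 270.4 and 206 FPKM in fluphenazine and 296, 244 and 278 FPKM under cantharidin, against 449, 436 and 467 FPKM in the controls. It had 302, 348 and 282 FPKM in rpn-6 RNAi, 382, 397 and 385 FPKM in 10 µM bortezomib and 168, 158 and 182 FPKM in 25 µM bortezomib. As for hsp-60, no treated library reached the controls.

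Y22D7AL.10 fell in 5 treatments, with a log2 fold change of -1.42 ± 0.11 in starvation (adjusted p = 6.17e-08, limma), -1.41 ± 0.11 in 25 µM bortezomib (3.41e-08), -0.96 ± 0.11 in fluphenazine (5.38e-06), -0.73 ± 0.11 under cantharidin (8.84e-05) and -0.54 ± 0.11 in rpn-6 RNAi (0.000886). In 10 µM bortezomib its value was -0.22 ± 0.11, which was not called (adjusted p = 0.209; -0.49 with 0.0427 under median-of-ratios scaling). Its order of groups was close to that of hsp-60: starvation and 25 µM bortezomib lowest (no difference called, 0.918), then fluphenazine (above 25 µM bortezomib, 0.00644), cantharidin, rpn-6 RNAi, 10 µM bortezomib (above rpn-6 RNAi, 0.0416; 0.0553 after median-of-ratios scaling, 0.0846 after quantile normalization) and control. Over the 21 libraries the log2 levels of both genes had r = 0.974, or 0.678 after each group's mean was removed. Among 12083 genes ranked by likeness to hsp-60, Y22D7AL.10 was number 3. These points share their group, depth and scaling, so the coefficients are a description.

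Within every treated library hsp-60 stood lower against its neighbour than in the controls. The ratio of the 2 levels within a library, which a single scaling factor per library cannot change, was 0.662, 0.599 and 0.501 in starvation, 0.644, 0.513 and 0.632 in fluphenazine and 0.640, 0.685 and 0.648 under cantharidin, against 0.764, 0.812 and 0.881 in the controls. It was 0.655, 0.541 and 0.565 in rpn-6 RNAi, 0.652, 0.649 and 0.656 in 10 µM bortezomib and 0.572, 0.537 and 0.591 in 25 µM bortezomib. The 18 treated libraries spanned 0.501 to 0.685, with no overlap with the controls (mean 0.819 ± 0.0588). The mean log2 ratio minus that of the controls was -0.48 in starvation, -0.46 in fluphenazine, -0.31 under cantharidin, -0.48 in rpn-6 RNAi, -0.32 in 10 µM bortezomib and -0.52 in 25 µM bortezomib. Each comparison had a two-sided exact permutation p of 0.1, the smallest that 3 against 3 libraries allow (0.1 after adjustment over the 6 treatments), so it cannot pass 0.05 in this design, and all 6 share the same 3 controls. The plot of the neighbouring genes shows both genes falling together and the treated libraries lying on a lower slope.

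**Figure D2:**
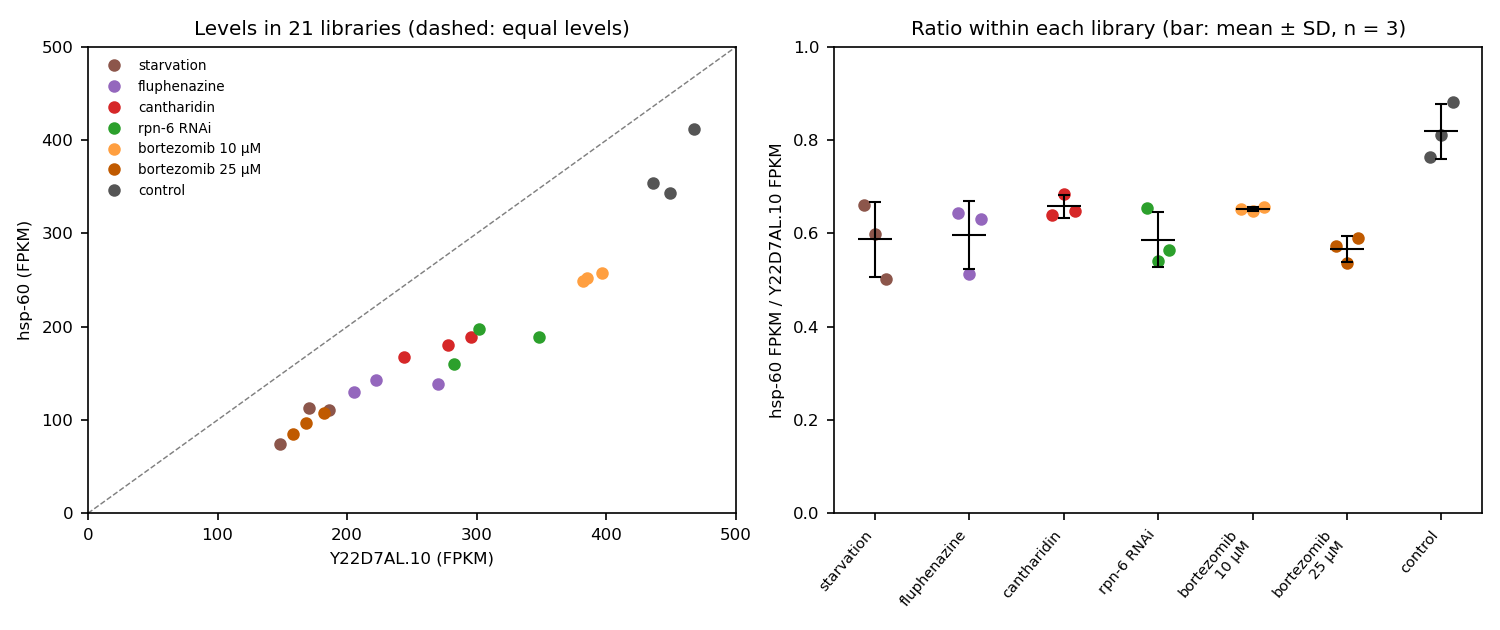
Left: hsp-60 (vertical axis, FPKM) against its neighbour Y22D7AL.10 (horizontal axis, FPKM) in 21 libraries, with a dashed line of equal levels; right: their ratio within each library by group, with bars for the mean ± SD of 3 libraries. The 18 treated libraries have ratios of 0.501 to 0.685 and the 3 controls 0.764 to 0.881.

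hsp-6 (WBGene00002010) encodes the mitochondrial HSP70, which pulls proteins in through the inner membrane and folds them in the matrix. It moved little beside hsp-60 and in both directions. It had 453, 442 and 423 FPKM in rpn-6 RNAi, 410.3, 405 and 401 FPKM in 10 µM bortezomib and 285, 281 and 260.2 FPKM in 25 µM bortezomib, against 327, 341 and 387 FPKM in the controls. As deposited, all rpn-6 RNAi and 10 µM bortezomib libraries lay above the controls, and all 25 µM bortezomib libraries below. It had 306, 334 and 243 FPKM in starvation, 309, 332 and 286 FPKM in fluphenazine and 334, 302 and 329.8 FPKM under cantharidin, and these 3 groups overlapped the controls.

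As deposited, hsp-6 rose in rpn-6 RNAi (log2 0.32 ± 0.10, adjusted p = 0.0159, limma), but with median-of-ratios scaling the sign turned (-0.06, adjusted p = 0.798), with quantile normalization it stayed called (0.50, 0.000549), and relative to the all-gene median the value was 0.02. It fell in 25 µM bortezomib (-0.35 ± 0.10, 0.00738) and in starvation (-0.26 ± 0.10, 0.0320). The starvation call rests on few libraries: without starvation 3 the adjusted p was 0.184, without control 7 it was 0.118 and without control 6 0.0541, and with quantile normalization it was 0.0549. The rpn-6 RNAi call was lost without rpn-6 RNAi 4 (0.0549), control 4 (0.0705) or control 6 (0.0520). Fluphenazine (-0.19 ± 0.10, adjusted p = 0.132), cantharidin (-0.12 ± 0.10, 0.336) and 10 µM bortezomib (0.21 ± 0.10, 0.174) were not called as deposited. Under median-of-ratios scaling hsp-6 was called lower in fluphenazine (-0.61, 0.00123) and cantharidin (-0.54, 0.00305), and 10 µM bortezomib was at -0.07 (0.859). As deposited, no neighbouring pair in the order of the 7 groups differed beyond its spread, but with median-of-ratios scaling control and cantharidin did (0.00305).

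The levels of hsp-6 and hsp-60 were nearly equal in the controls and not in any treated library. The ratio of hsp-6 to hsp-60 was 3.0 ± 0.280 in starvation, 2.25 ± 0.125 in fluphenazine, 1.80 ± 0.0352 under cantharidin, 2.43 ± 0.193 in rpn-6 RNAi, 1.60 ± 0.0389 in 10 µM bortezomib and 2.89 ± 0.448 in 25 µM bortezomib, against 0.951 ± 0.0119 in the controls. The controls ran from 0.938 to 0.962 and the lowest treated library was at 1.57. This ratio was computed after the levels were seen and carries no test.

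dnj-10 (WBGene00001028) encodes a DnaJ-type cochaperone of the mitochondrial HSP70. Its group means stayed between 46.4 FPKM in 25 µM bortezomib and 57.0 FPKM in the controls, the narrowest span of the 9 genes. It was called lower in 25 µM bortezomib (46.4 ± 2.97 FPKM against 57.0 ± 3.71 FPKM in control; log2 -0.29 ± 0.07, adjusted p = 0.00328, limma), fluphenazine (-0.24 ± 0.07, 0.0149), cantharidin (-0.21 ± 0.07, 0.0322) and starvation (-0.19 ± 0.07, 0.0396). The libraries of these groups did not overlap the controls. The starvation call was lost without any 1 of starvation 2, starvation 3, 10 µM bortezomib 7, control 4 or control 6 (adjusted p of 0.0501 to 0.157), the cantharidin call without cantharidin 1, cantharidin 3, control 4 or control 6 (0.0890 to 0.136), and the fluphenazine call without fluphenazine 2 or control 4 (0.0527 and 0.0733). In rpn-6 RNAi (-0.09 ± 0.07, 0.369) it was not called, nor in 10 µM bortezomib, where it had 56.8 ± 2.75 FPKM (adjusted p = 0.992). Rescaling added both calls on the lower side: rpn-6 RNAi was at -0.47 (0.000317) after median-of-ratios scaling or -0.30 (0.00243) after quantile normalization, and 10 µM bortezomib at -0.28 (0.0396) after median-of-ratios scaling.

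Of the 4 protease genes, spg-7 had the most calls on the lower side. spg-7 (WBGene00004978) encodes paraplegin, a subunit of the inner-membrane protease that faces the matrix. It had 56.1, 56.4 and 40.2 FPKM in starvation, 53.8, 58.5 and 54.7 FPKM in fluphenazine, 59.9, 57.9 and 57.9 FPKM under cantharidin and 55.2, 54.4 and 53.6 FPKM in 25 µM bortezomib, against 72.1, 73.0 and 78.7 FPKM in the controls. No library of these 4 treatments reached the lowest control. The gene fell in starvation (log2 -0.56 ± 0.10, adjusted p = 0.000313, limma), 25 µM bortezomib (-0.45 ± 0.10, 0.00162), fluphenazine (-0.42 ± 0.10, 0.00415) and cantharidin (-0.34 ± 0.10, 0.0149).

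In rpn-6 RNAi spg-7 had 83.5, 78.9 and 73.9 FPKM and in 10 µM bortezomib 78.3, 72.0 and 76.4 FPKM, and both groups overlapped the controls. Their fold changes, 0.08 ± 0.10 and 0.02 ± 0.10, were not called and turned sign with median-of-ratios scaling (-0.30 and -0.25) and quantile normalization (-0.09 and -0.12). In the order of its levels the step between control and cantharidin differed (adjusted p = 0.0149) and no other neighbouring pair did, so rpn-6 RNAi, 10 µM bortezomib and control form an upper set and the other 4 groups a lower one. Over the 21 libraries the log2 levels of spg-7 and hsp-6 had r = 0.915 (0.864 after group means were removed), the highest among member pairs other than hsp-60 with Y22D7AL.10. spg-7 overlaps 2 protein-coding genes and 1 noncoding gene on the opposite strand, and the use of strand in counting is not stated, so its value may hold reads of these genes.

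ymel-1 (WBGene00010842), which encodes the inner-membrane protease that faces the intermembrane space, was called higher in 3 of the 6 treatments as deposited and in none of them with median-of-ratios scaling. It had 54.9, 55.7 and 55.6 FPKM in rpn-6 RNAi, 45.2, 48.8 and 51.7 FPKM in starvation and 46.9, 48.4 and 40.8 FPKM in 25 µM bortezomib, against 37.1, 39.8 and 37.3 FPKM in the controls, the group where it was lowest. None of these 9 treated libraries overlapped the controls. It rose in rpn-6 RNAi (log2 0.53 ± 0.09, adjusted p = 0.000115, limma), where median-of-ratios scaling left 0.16 without a call (adjusted p = 0.348). With quantile normalization the rpn-6 RNAi value was 0.25, just called (0.0495). As deposited it also rose in starvation (0.34 ± 0.09, 0.00385) and 25 µM bortezomib (0.25 ± 0.09, 0.0256), but with median-of-ratios scaling both turned sign (-0.02 and -0.20, not called). With quantile normalization starvation stayed called (0.26, 0.0280) and 25 µM bortezomib turned sign (-0.05). Relative to the all-gene median the 3 deposited values were 0.22 in rpn-6 RNAi, -0.03 in starvation and -0.16 in 25 µM bortezomib. Fluphenazine (0.17 ± 0.09, adjusted p = 0.120), 10 µM bortezomib (0.22 ± 0.09, 0.109) and cantharidin (0.05 ± 0.09, 0.667) were not called, and with median-of-ratios scaling cantharidin was called lower (-0.36, 0.0213). The 25 µM bortezomib call was lost without 25 µM bortezomib 3 or 4 or control 4 or 7 (adjusted p of 0.0527 to 0.109).

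lonp-1 (WBGene00016391) encodes the matrix protease Lon, and in the tests of the deposited values against control it was called in 0 of 6 treatments. It had 63.8, 68.3 and 66.9 FPKM in rpn-6 RNAi, 51.6, 53.3 and 43.7 FPKM in starvation and 47.1, 47.4 and 54.3 FPKM under cantharidin, against 61.3, 57.0 and 56.5 FPKM in the controls. The rpn-6 RNAi libraries lay above the controls (a sign that turned with median-of-ratios scaling, -0.19, and quantile normalization, -0.03) and the starvation and cantharidin libraries below, without a call (log2 0.18 ± 0.10, adjusted p = 0.168; -0.23 ± 0.10, 0.0520; -0.23 ± 0.10, 0.0754 in limma). The smallest unadjusted p of the 6 comparisons was 0.0302. Rescaling gave calls on the lower side in 4 treatments. Under median-of-ratios scaling lonp-1 was called lower in starvation (-0.60), fluphenazine (-0.60), cantharidin (-0.64) and 25 µM bortezomib (-0.50), and with quantile normalization in the same 4 (-0.24, 0.0289; -0.25, 0.0285; -0.36, 0.00489; -0.23, 0.0312). With control 7, fluphenazine 4 and starvation 3 left out it was called lower in fluphenazine (-0.32, 0.00293) and cantharidin (-0.25, 0.00874).

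clpp-1 (WBGene00014172) encodes the proteolytic subunit of the matrix protease ClpP. It had 84.6, 79.9 and 79.7 FPKM in 25 µM bortezomib, 81.2, 75.7 and 79.3 FPKM in 10 µM bortezomib and 92.4, 77.9 and 63.1 FPKM in starvation, against 67.0, 66.0 and 58.6 FPKM in the controls. The bortezomib libraries lay above the controls, and the starvation libraries overlapped them. As deposited clpp-1 rose in 25 µM bortezomib (log2 0.35 ± 0.10, adjusted p = 0.0106, limma) and in starvation (0.27 ± 0.10, 0.0386), and both signs turned with median-of-ratios scaling (-0.10 and -0.10, not called). With quantile normalization the 25 µM bortezomib value was 0.21, without a call (0.0647), and the starvation value 0.27, with a call (0.0236). Cantharidin (-0.04 ± 0.10, 0.778) was not called as deposited and was called lower with median-of-ratios scaling (-0.46, 0.00421). The starvation call was lost without starvation 1 (0.239), starvation 2 (0.0817) or any 1 of the controls (0.0518 to 0.120). clpp-1 overlaps mdt-22 and 3 noncoding genes, so its value carries the same doubt on strand as that of spg-7.

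**Figure D3:**
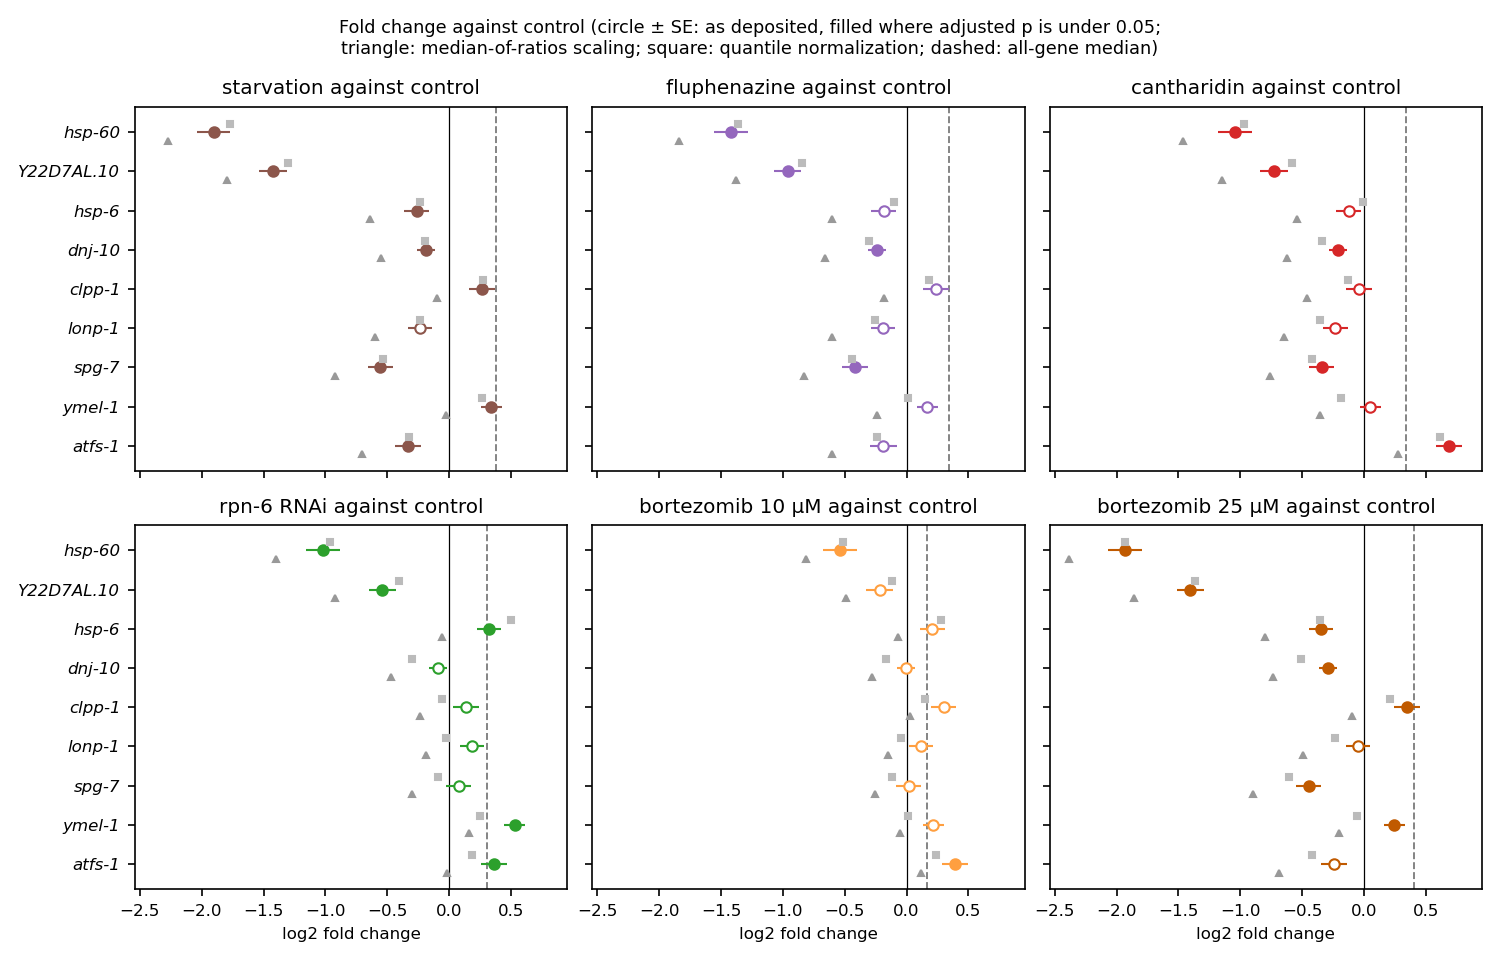
Log2 fold change against control (horizontal axes) of the 9 genes (rows) in the 6 treatments (panels): circles ± SE from the deposited FPKM, filled where the adjusted p is under 0.05, grey triangles with median-of-ratios scaling, grey squares with quantile normalization, and a dashed line at the median of all tested genes. hsp-60 is left of 0 under every scaling in each panel, while the starvation and 25 µM bortezomib values of clpp-1 and ymel-1 and the rpn-6 RNAi value of hsp-6 change side with median-of-ratios scaling.

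atfs-1 (WBGene00013878), the gene of the response's own transcription factor, had its highest level under cantharidin and its lowest in starvation. It had 106, 98.5 and 107 FPKM under cantharidin, 81.0, 89.6 and 77.8 FPKM in rpn-6 RNAi and 86.2, 82.8 and 84.0 FPKM in 10 µM bortezomib, against 63.4, 73.0 and 57.0 FPKM in the controls. Each library of these 3 treatments was above the highest control, a separation whose share among all tested genes was not computed. It had 48.7, 49.4 and 54.1 FPKM in starvation, 51.5, 67.9 and 50.8 FPKM in fluphenazine and 52.8, 54.6 and 55.1 FPKM in 25 µM bortezomib. Starvation and 25 µM bortezomib lay below the controls, and fluphenazine overlapped them through fluphenazine 4.

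The gene rose under cantharidin to 161% of control (log2 0.69 ± 0.11, adjusted p = 0.000108, limma), in 10 µM bortezomib (0.39 ± 0.11, 0.0242) and in rpn-6 RNAi (0.36 ± 0.11, 0.0129), the last of which turned sign with median-of-ratios scaling (-0.01). That scaling also left the cantharidin value at 0.27 (adjusted p = 0.136) and the 10 µM bortezomib value at 0.12 (0.729), without a call; relative to the all-gene median they were 0.35 and 0.23. With quantile normalization cantharidin was called (0.62) and the other 2 were not. atfs-1 fell in starvation (-0.33 ± 0.11, 0.0147), and its values in fluphenazine (-0.19 ± 0.11, 0.158) and 25 µM bortezomib (-0.24 ± 0.11, 0.0681) were not called as deposited. Under median-of-ratios scaling both were called lower (-0.60, 0.00394 in fluphenazine; -0.69, 0.00112 in 25 µM bortezomib), as was 25 µM bortezomib with quantile normalization (-0.42, 0.00246). Without control 7, fluphenazine 4 and starvation 3 together, both were called lower, at -0.40 (0.000286) in fluphenazine and -0.32 (0.000936) in 25 µM bortezomib.

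Single libraries decided some of these calls. The 10 µM bortezomib call of atfs-1 was lost without any 1 of its own libraries, control 4 or control 7 (adjusted p of 0.0590 to 0.0878), the rpn-6 RNAi call without rpn-6 RNAi 5 or control 7 (0.0644 and 0.0645), and the starvation call without control 6 (0.0874). In the order of levels as deposited, starvation, 25 µM bortezomib, fluphenazine and control did not differ between neighbours. With median-of-ratios scaling fluphenazine and control did (0.00394). As deposited rpn-6 RNAi was above control (0.0129, but 0.965 after median-of-ratios scaling and 0.176 after quantile normalization). 10 µM bortezomib did not differ from rpn-6 RNAi (0.879), and cantharidin was above 10 µM bortezomib (0.0470, but 0.436 after median-of-ratios scaling). The ratio of atfs-1 to hsp-60 within a library ran from 0.322 to 0.729 in the treated libraries and from 0.138 to 0.206 in the controls; it was computed after the levels were seen.

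The 2 doses of bortezomib differed in most of the genes. In 25 µM against 10 µM bortezomib 6 of 9 members were called lower and 0 higher, beside 39.6% of all tested genes called (12.4% lower and 27.2% higher). hsp-60 was 38.1% of its 10 µM level (log2 -1.39 ± 0.14, adjusted p = 9.78e-07, limma), Y22D7AL.10 43.8% (-1.19 ± 0.11, 5.09e-07), atfs-1 64.2% (-0.63 ± 0.11, 0.000248), hsp-6 68.0% (-0.56 ± 0.10, 0.000374), spg-7 72.0% (-0.47 ± 0.10, 0.00206) and dnj-10 81.7% (-0.29 ± 0.07, 0.00597). The libraries of the 2 doses did not overlap for 7 of 9 members, these 6 and lonp-1, and neither did those of 74.5% of all tested genes. The values of lonp-1 (-0.17 ± 0.10; called with median-of-ratios scaling, -0.34, 0.0450), clpp-1 (0.05 ± 0.10) and ymel-1 (0.03 ± 0.09) were not called. In the plot over dose, hsp-60 steps down at each dose with both steps called, while the means of atfs-1 and hsp-6 were above control at 10 µM and below it at 25 µM (for hsp-6 with median-of-ratios scaling, below at both, -0.07 and -0.80).

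**Figure D4:**
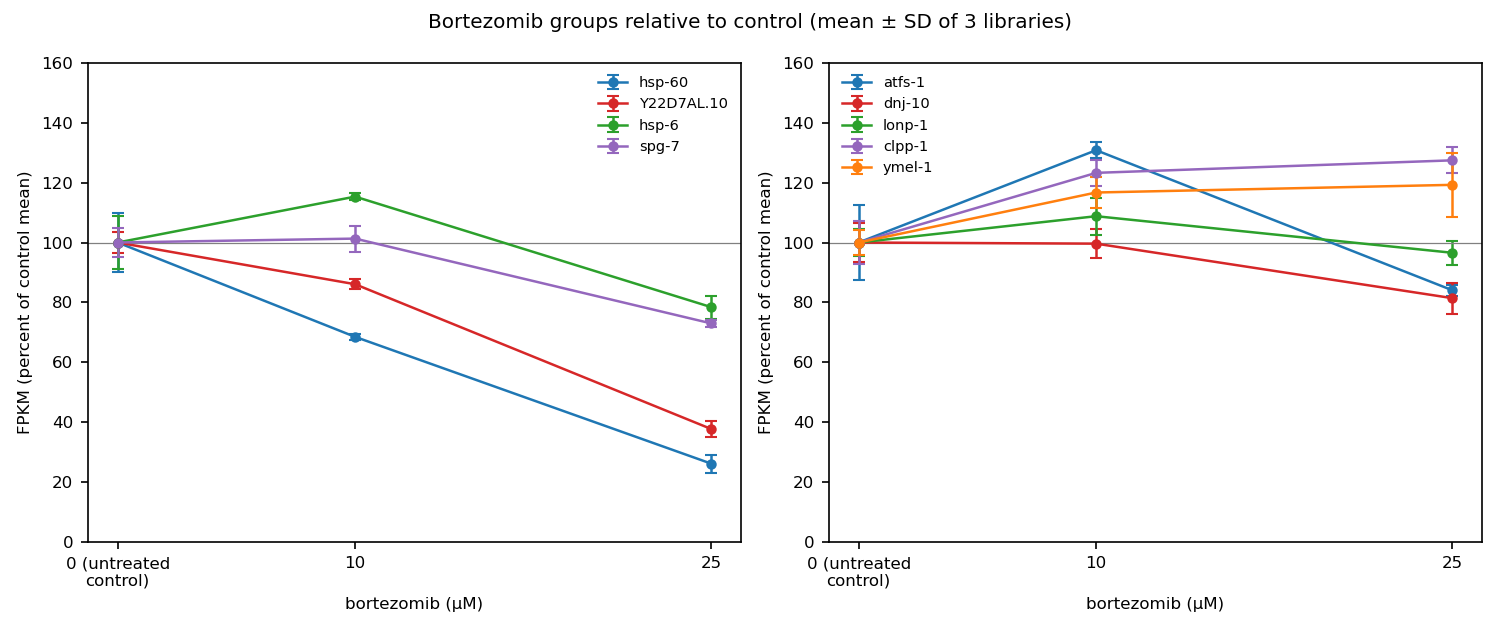
Mean level of each gene as a percent of the control mean (vertical axes) over the bortezomib dose (horizontal axes, µM; 0 is the untreated control), with error bars for the SD of 3 libraries. hsp-60 is at 68.5% of control at 10 µM and 26.1% at 25 µM, and atfs-1 at 130.9% and 84.0%.

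Both rpn-6 RNAi and bortezomib act on the proteasome, and the 25 µM dose was compared with RNAi directly. In 25 µM bortezomib 6 of 9 members were lower than in rpn-6 RNAi and 0 higher (22.1% of all tested genes called; 8.01% lower and 14.1% higher). With quantile normalization 7 were lower and 1 higher (13.6% and 10.6% of all tested genes), and without control 7, fluphenazine 4 and starvation 3 together 8 and 1. As deposited the 6 were hsp-60 (log2 -0.91 ± 0.14, adjusted p = 0.000281, limma), Y22D7AL.10 (-0.87 ± 0.11, 6.19e-05), hsp-6 (-0.67 ± 0.10, 0.000236), atfs-1 (-0.60 ± 0.11, 0.00109), spg-7 (-0.52 ± 0.10, 0.00216) and ymel-1 (-0.29 ± 0.09, 0.0290). All 9 genes had libraries that did not overlap between these 2 groups, as had 61.4% of all tested genes, with clpp-1 alone higher in 25 µM bortezomib (0.21 ± 0.10, not called; 0.0426 with quantile normalization). The ymel-1 call was lost without any 1 of the rpn-6 RNAi libraries or 25 µM bortezomib 6 (adjusted p of 0.0682 to 0.133). dnj-10 was not called as deposited (-0.20 ± 0.07, 0.0595) and was called with median-of-ratios scaling (-0.27, 0.0340). The all-gene median of this comparison was 0.03 and the member median -0.52.

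Among 12082 tested genes with a symbol and a mean of at least 5 FPKM, the 5 whose log2 level was most like that of hsp-60 over the 21 libraries were inf-1 (r = 0.980), mrpl-12 (0.975), cri-3 (0.966), eif-3.C (0.959) and BE0003N10.1 (0.958). inf-1 encodes a translation initiation factor and mrpl-12 a protein of the mitochondrial ribosome. inf-1 averaged 259.6 FPKM in starvation, 317 in fluphenazine, 388 under cantharidin, 369 in rpn-6 RNAi, 445 in 10 µM bortezomib and 266 in 25 µM bortezomib, against 562 FPKM in control, with control highest and 10 µM bortezomib next, as for hsp-60. After group means were removed, r was 0.799 for inf-1, 0.762 for mrpl-12, 0.787 for cri-3, 0.370 for eif-3.C and 0.695 for BE0003N10.1.

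The genes most like hsp-6 were sgt-1 (r = 0.901), F44E7.5 (0.861), lap-2 (0.859), F35D11.4 (0.858) and cct-7 (0.857); sgt-1 encodes a cochaperone and cct-7 a subunit of the cytosolic chaperonin. Those most like atfs-1 were vms-1 (r = 0.862), T11G6.5 (0.855), grp-1 (0.841), atf-7 (0.838) and dnj-1 (0.835), of which atf-7 encodes a bZIP transcription factor. All these coefficients are over the same 21 libraries, which share group, depth and scaling.

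The wider pathway was read from gene lists, each set beside the background given above, which does not cover the counts with libraries left out. Of 20 tested genes of mitochondrial protein import, 12 fell and 2 rose in starvation, 12 and 1 in fluphenazine, 12 and 1 under cantharidin, 10 and 1 in rpn-6 RNAi, 2 and 0 in 10 µM bortezomib, and 14 and 1 in 25 µM bortezomib. The list medians were -0.36, -0.34, -0.28, -0.19, -0.06 and -0.42 in that order. Under median-of-ratios scaling 14, 19, 18, 15, 7 and 19 of the 20 fell. Without control 7, fluphenazine 4 and starvation 3 together, 12, 14, 13, 11, 3 and 14 fell.

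tomm-22, a receptor subunit of the outer-membrane import complex, fell in 6 of 6 treatments, to 101 ± 5.0 FPKM in 25 µM bortezomib and 107 ± 4.81 FPKM in starvation, against 188 ± 6.34 FPKM in control (log2 -0.89 ± 0.10, adjusted p = 1.37e-06; -0.81 ± 0.10, 5.32e-06, limma). tomm-40, the import channel of the same complex, fell in 5, with 116 ± 7.98 FPKM in 25 µM bortezomib against 199 ± 3.97 FPKM in control (-0.78 ± 0.10, 1.13e-05). The small carriers of the intermembrane space ddp-1 and tin-13 also fell in 5 treatments each, with -0.82 ± 0.09 and -0.58 ± 0.09 in starvation (2.02e-06 and 7.91e-05). In 10 µM bortezomib the 3 genes tomm-40, ddp-1 and tin-13 were not called (-0.09, -0.21 and -0.14).

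Of 12 tested regulators of the mitochondrial unfolded protein response, 5 rose and 3 fell in starvation, 4 and 2 in fluphenazine, 4 and 1 under cantharidin, 5 and 0 in rpn-6 RNAi, 3 and 0 in 10 µM bortezomib, and 6 and 1 in 25 µM bortezomib. The list medians were 0.10, -0.01, 0.03, 0.25, 0.22 and 0.20. Under median-of-ratios scaling the counts were 2 and 5, 2 and 5, 3 and 4, 2 and 0, 0 and 0, and 3 and 5; with quantile normalization 2 and 3, 2 and 4, 1 and 3, 3 and 0, 1 and 0, and 4 and 3. The direction of the list as a whole thus depended on the scaling, while dve-1 and pmk-3 in rpn-6 RNAi and 25 µM bortezomib rose under each. The genes given levels below are all ones that rose, by the rule for naming. As deposited, smo-1 and ubl-5 were called lower in 3 treatments each and hda-1 in 1, and haf-1, lin-65 and met-2 had no call. Without control 7, fluphenazine 4 and starvation 3 together, 5 rose and 4 fell in starvation, 4 and 6 in fluphenazine, 4 and 4 under cantharidin, 6 and 1 in rpn-6 RNAi, 4 and 0 in 10 µM bortezomib, and 6 and 4 in 25 µM bortezomib.

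dve-1, a homeodomain factor that acts with ATFS-1, had 36.8 ± 4.56 FPKM in rpn-6 RNAi and 30.4 ± 5.10 FPKM in 25 µM bortezomib, against 11.2 ± 1.62 FPKM in control (log2 1.64 ± 0.20, adjusted p = 5.47e-06; 1.36 ± 0.20, 3.67e-05, limma). It also rose in starvation (1.47 ± 0.20), fluphenazine (1.52 ± 0.20) and cantharidin (1.14 ± 0.20), and not in 10 µM bortezomib (0.13 ± 0.20). pmk-3, a p38-type kinase, had 36.6 ± 5.76 FPKM in rpn-6 RNAi and 33.2 ± 1.25 FPKM in 25 µM bortezomib, against 9.74 ± 1.58 FPKM in control (1.81 ± 0.21, 3.97e-06; 1.68 ± 0.21, 8.74e-06). jmjd-3.1, a histone demethylase gene, rose in 4 treatments, with 9.69 ± 1.65 FPKM under cantharidin against 3.05 ± 0.832 FPKM in control (1.41 ± 0.39, 0.0101); with quantile normalization it was called in 0 (0.47 under cantharidin). ulp-4, a SUMO protease gene, rose in 6 of 6 as deposited (log2 0.33 to 0.46), values of -0.12 to 0.13 with median-of-ratios scaling and no call.

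Of 19 tested genes of other mitochondrial proteases, prohibitins, dynamics and mitophagy, 8 fell and 2 rose in starvation, 6 and 2 in fluphenazine, 5 and 4 under cantharidin, 4 and 7 in rpn-6 RNAi, 2 and 4 in 10 µM bortezomib, and 5 and 5 in 25 µM bortezomib. Under median-of-ratios scaling 13 and 2, 13 and 2, 10 and 2, 6 and 3, 5 and 2, and 12 and 3 fell and rose, and with quantile normalization 11 and 2, 11 and 2, 6 and 2, 6 and 4, 2 and 0, and 10 and 3. Without control 7, fluphenazine 4 and starvation 3 together, 10 fell and 4 rose in starvation, 12 and 3 in fluphenazine, 10 and 4 under cantharidin, 5 and 7 in rpn-6 RNAi, 2 and 5 in 10 µM bortezomib, and 9 and 5 in 25 µM bortezomib. phb-1, a prohibitin of the inner membrane, fell in 6 of 6 treatments, to 212 ± 7.92 FPKM in 25 µM bortezomib against 356 ± 16 FPKM in control (log2 -0.74 ± 0.07, adjusted p = 5.77e-07, limma). mppa-1, a subunit gene of the peptidase that removes import signals, fell in 5, with 24.8 ± 2.30 FPKM in starvation against 46.7 ± 4.70 FPKM in control (-0.88 ± 0.11, 7.82e-06). dct-1, a mitophagy receptor gene, rose in 6 of 6: it had 74.9 ± 4.96 FPKM in fluphenazine and 73.3 ± 8.88 FPKM in starvation, against 14.7 ± 3.43 FPKM in control (2.29 ± 0.15, 1.41e-08; 2.25 ± 0.15, 1.28e-08).

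Among 5 mitochondrial antioxidant genes, 2 rose and 0 fell in starvation, fluphenazine and rpn-6 RNAi, 2 rose and 1 fell in 25 µM bortezomib, 0 rose and 2 fell under cantharidin, and 0 moved in 10 µM bortezomib. Under median-of-ratios scaling 1 rose and 2 fell in starvation, 1 and 3 in fluphenazine, 0 and 2 under cantharidin, 1 and 2 in rpn-6 RNAi, 0 and 1 in 10 µM bortezomib, and 1 and 3 in 25 µM bortezomib. With quantile normalization these counts were 1 and 0, 1 and 1, 0 and 3, 0 and 1, 0 and 0, and 0 and 2. trxr-2, the mitochondrial thioredoxin reductase gene, had 14.1 ± 0.622 FPKM in starvation and 14.1 ± 0.560 FPKM in 25 µM bortezomib, against 7.65 ± 0.231 FPKM in control (log2 0.80 ± 0.11, adjusted p = 1.63e-05; 0.80 ± 0.11, 1.22e-05, limma); with quantile normalization the values were 0.06 and -0.15. For chaperones of other compartments, the 8 cct genes of the cytosolic chaperonin gave 6 falls in starvation, 5 in fluphenazine, 4 under cantharidin and 4 in 25 µM bortezomib, 3 rises in rpn-6 RNAi and no call in 10 µM bortezomib. Under median-of-ratios scaling 7 cct genes fell in starvation, fluphenazine, cantharidin and 25 µM bortezomib, 0 in rpn-6 RNAi and 1 in 10 µM bortezomib, with 0 rises; with quantile normalization 5 fell in starvation, 3 in fluphenazine, 0 under cantharidin and 4 in 25 µM bortezomib, and 4 rose in rpn-6 RNAi. Of 4 HSP70 genes of the cytosol and endoplasmic reticulum 1 fell in starvation and in fluphenazine, 1 rose and 1 fell under cantharidin and 25 µM bortezomib, 2 rose and 1 fell in rpn-6 RNAi, and 0 were called in 10 µM bortezomib. Under median-of-ratios scaling 0 of the 4 rose and 2 fell in starvation, fluphenazine and 25 µM bortezomib, 0 and 1 under cantharidin, 1 and 1 in rpn-6 RNAi, and 0 and 0 in 10 µM bortezomib.

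Whole worms hold many cell types, and fewer cells of a type cannot be told apart from less RNA per cell. Markers of 7 tissues were detected in every group. Of 14 oocyte markers, none at 0 in any library, 14 fell in starvation and 0 were called in the other 5 treatments as deposited. Under median-of-ratios scaling 14 fell in starvation, 8 in fluphenazine and 6 in 25 µM bortezomib, and with quantile normalization 12, 1 and 1. Control 7 had a lower oocyte level (log2 -0.55) than the other controls (0.27 each), and without control 7, fluphenazine 4 and starvation 3 together, 14 fell in starvation, 14 in fluphenazine, 11 under cantharidin, 2 in rpn-6 RNAi, 1 in 10 µM bortezomib and 14 in 25 µM bortezomib. Their summed level was 199 to 2759 FPKM in starvation, 1117 to 5745 in fluphenazine, 2578 to 4617 under cantharidin, 3618 to 4728 in rpn-6 RNAi, 5240.0 to 5675 in 10 µM bortezomib and 2029 to 3279 in 25 µM bortezomib, against 3956 to 6300 FPKM in control. In the plot of hsp-60 against these markers, fluphenazine 4 had an oocyte level near that of the controls (log2 0.10) and hsp-60 at 139 FPKM, while fluphenazine 2 and 9 had oocyte levels of -1.65 and -2.39 with hsp-60 at 143 and 130 FPKM. Starvation 3 had both the lowest oocyte level (-4.74) and the lowest hsp-60.

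**Figure D5:**
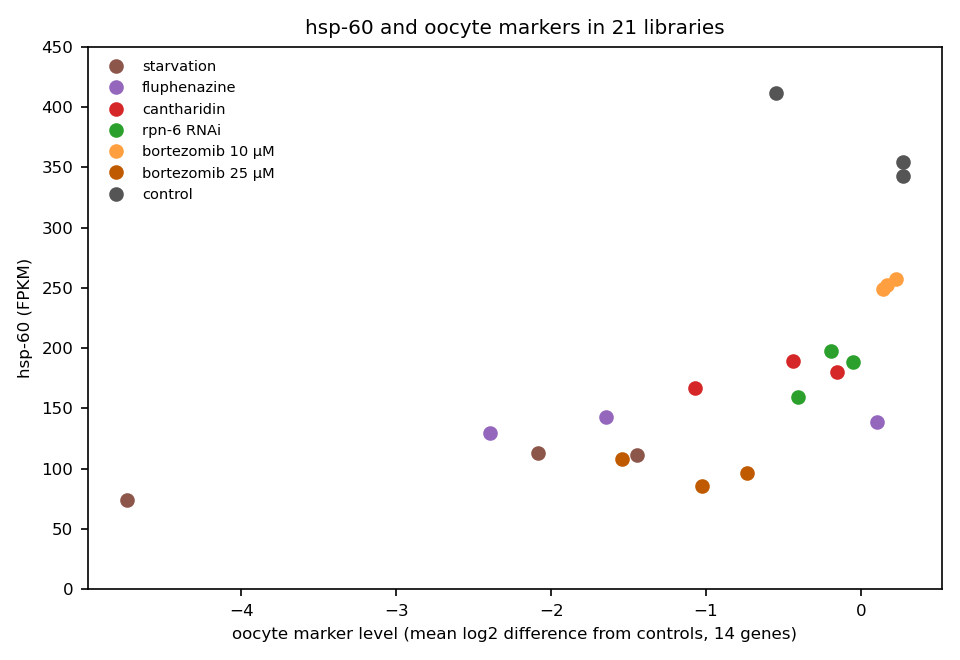
hsp-60 (vertical axis, FPKM) against the mean log2 level of 14 oocyte markers relative to the controls (horizontal axis) in 21 libraries, coloured by group. All 18 treated libraries have hsp-60 below all controls, with oocyte levels from -4.74 (starvation 3) to 0.23 (10 µM bortezomib 8), against -0.55 to 0.27 in the controls. The rpn-6 RNAi, 10 µM bortezomib, cantharidin 9 and fluphenazine 4 libraries have oocyte levels between -0.41 and 0.23, and the other treated libraries lie lower.

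Neuron markers rose in most treatments: of 7, 6 rose in starvation, 7 in fluphenazine, cantharidin, rpn-6 RNAi and 25 µM bortezomib, and 1 in 10 µM bortezomib. After median-of-ratios scaling 6 rose in starvation, 4 in fluphenazine, 5 under cantharidin, 5 in rpn-6 RNAi, 0 in 10 µM bortezomib and 6 in 25 µM bortezomib. Their summed level was 783 to 1073 FPKM in starvation, 678 to 861 in fluphenazine, 648 to 681 under cantharidin, 617 to 667 in rpn-6 RNAi, 455 to 472 in 10 µM bortezomib and 656 to 713 in 25 µM bortezomib, against 393 to 399.7 FPKM in control, with none at 0. Of 6 epidermis markers 5 rose in starvation, 4 in fluphenazine and under cantharidin, 3 in 25 µM bortezomib, and 0 in rpn-6 RNAi and in 10 µM bortezomib, with summed levels of 2094 to 3191, 1020 to 2779, 1747 to 2671, 2091 to 2491, 1820 to 1980 and 1554 to 1802 FPKM against 1857 to 2827 FPKM in control, with none at 0. After median-of-ratios scaling 5 epidermis markers rose and 1 fell in starvation, and 4 and 1 in fluphenazine. With that scaling 3 rose under cantharidin, 2 in 25 µM bortezomib and 0 in rpn-6 RNAi and 10 µM bortezomib, with 0 falls. Without the same 3 libraries 5 epidermis markers rose in each treatment but 10 µM bortezomib, where 0 did. In that setting 1 fell in fluphenazine, cantharidin, rpn-6 RNAi and 25 µM bortezomib, and 5 neuron markers rose in 10 µM bortezomib. Of 8 sperm markers 1 rose in starvation, fluphenazine and cantharidin, 0 in rpn-6 RNAi, 1 in 10 µM bortezomib and 4 in 25 µM bortezomib; without the 3 libraries 8, 8, 7, 6, 4 and 8 rose, and after median-of-ratios scaling 1, 1, 0, 0, 1 and 2. Of 10 germline, 5 intestine and 7 muscle markers, at most 4, 3 and 2 moved in 1 direction in a treatment as deposited, at most 6, 2 and 4 with median-of-ratios scaling, and at most 6, 3 and 4 without the 3 libraries. The part of tissue make-up in the results above was not tested.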

How the data were processed

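Whole-worm mRNA of 21 libraries was measured by RNA sequencing with a stranded kit after Trizol and RNeasy extraction, per the labels' protocols. The authors deposited 1 table of FPKM values per gene and library; the submitters' processing notes name CASAVA and Cufflinks without a version or role, and the genome build and the use of strand are not given in the sources used here. Values were used as deposited. Absolute depth is not given, so no counting interval can be set; relative depth ranged 1.60-fold. Of the 46254 IDs, 43200 matched a symbol of annotation release 115 on WBcel235, which was used only for names, strands and neighbouring genes. Exact zeros occurred 154 times in 60 of 7405 genes with a median above 20 FPKM, in none of the 9 members.

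Groups followed the labels. limma 3.58.1 in R 4.3.3 was run on log2(FPKM + 1) for the 17492 genes with at least 1 FPKM in 3 libraries, with a mean per group over all 21 libraries (14 residual degrees of freedom) and an intensity trend, and p-values were adjusted over all of these genes by Benjamini-Hochberg at 0.05. Fold changes are on the log2(FPKM + 1) scale, which understates those of low genes. The fit was tested on simulated data. Ratios were compared by exact permutation over libraries. Other steps used Python 3.11.15 with scipy 1.17.1, pandas 2.3.3, numpy 2.4.6 and, for figures, matplotlib 3.10.9. The members and gene lists were chosen with earlier results of these data known. All 9 members are named, with the 5 genes of highest Pearson r to hsp-60, hsp-6 and atfs-1 among tested genes with a symbol and a mean of at least 5 FPKM, and at most 4 genes of each list among those called in the same direction in at least 4 of the 6 treatments. Alternatives were a pseudocount of 0.1, no filter or one of 5 FPKM, scaling by median of ratios, array weights, quantile normalization, fits of 2 groups, a replicate block, such zeros as missing, and libraries left out singly or 3 together, the last chosen after seeing the data, as were the alternatives for pairs of treatments.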

Additional observations from a re-analysis of the deposited data

Results flagged for a closer look

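A pair of members moved in opposite directions in different treatments, by a limma contrast of the treatments themselves with Benjamini-Hochberg adjustment. hsp-6 was lower in starvation than in rpn-6 RNAi by a log2 difference of -0.59 ± 0.10 (SE, adjusted p = 0.000149), with fold changes against control of -0.26 in starvation and 0.32 in rpn-6 RNAi. It was also lower in 25 µM bortezomib than in rpn-6 RNAi, with -0.67 ± 0.10 (0.000236) and fold changes against control of -0.35 and 0.32. The rise of hsp-6 in rpn-6 RNAi was -0.06 after median-of-ratios scaling and 0.50 (adjusted p = 0.000549, called) after quantile normalization.

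atfs-1 was lower in starvation than in cantharidin by a log2 difference of -1.02 ± 0.11 (adjusted p = 3.94e-06, limma), with fold changes against control of -0.33 in starvation and 0.69 in cantharidin. It was lower in starvation than in 10 µM bortezomib, with -0.72 ± 0.11 (4.96e-05; -0.33 and 0.39 against control), and than in rpn-6 RNAi, with -0.70 ± 0.11 (6.02e-05; -0.33 and 0.36, where median-of-ratios scaling left -0.01). The rise in 10 µM bortezomib and in cantharidin was not called under median-of-ratios scaling (0.12 and 0.27). The libraries of each pair of groups did not overlap. The share of all tested genes that did not overlap was 61.4% for 25 µM bortezomib against rpn-6 RNAi. It was not computed for the other pairs. With 3 libraries per group, single libraries were not tested as outliers.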

How the results depend on the processing

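A pseudocount of 0.1, no filter on low values (genes with any value above 0) and treating exact zeros of well-expressed genes as missing changed none of the 43 called or 29 uncalled member comparisons, and a filter of 5 FPKM added 1 call. Counts of called members moved by over 1.5 times as follows, and the cause was not tested. Starvation gave 8 calls, against 4 in a fit of the 2 groups and 4 to 9 with 1 library left out. Fluphenazine gave 4, against 7 with median-of-ratios scaling and 9 with array weights. Without control 7, fluphenazine 4 and starvation 3 together it gave 7, and 3 to 6 with 1 left out. Cantharidin gave 5, against 8 with median-of-ratios scaling (4 to 6 with 1 left out). For rpn-6 RNAi the count was 5, against 3 with median-of-ratios scaling, 8 with array weights and 4 to 5 with 1 left out. For 10 µM bortezomib it was 2, against 1 with quantile normalization, 7 with array weights, 1 in a fit of the 2 groups, 4 without the 3 libraries and 0 to 3 with 1 left out. For 25 µM bortezomib it was 7 (6 to 8 with 1 left out), against 10 µM bortezomib 6 (6 to 6) and against rpn-6 RNAi 6 (5 to 8). With 1 library left out singly, 862 results of called comparisons kept their call and 41 lost it. These cover each of the 21 libraries, most of which belong to neither of the groups compared. Except for dnj-10 in starvation without 10 µM bortezomib 7, each loss came from leaving out a library of the groups compared. The 41 therefore understate the share lost when such a library is left out.

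Signs turned with median-of-ratios scaling for hsp-6 in rpn-6 RNAi (-0.0557) and 10 µM bortezomib (-0.0659). They turned for clpp-1 in starvation (-0.10), fluphenazine (-0.18), rpn-6 RNAi (-0.24), 25 µM bortezomib (-0.10) and 25 against 10 µM (-0.13). They turned for lonp-1 in rpn-6 RNAi (-0.19) and 10 µM bortezomib (-0.15), for spg-7 in the same treatments (-0.30 and -0.25), and for atfs-1 in rpn-6 RNAi (-0.0136). For ymel-1 they turned in starvation (-0.0222), fluphenazine (-0.24), cantharidin (-0.36), 10 µM bortezomib (-0.0516), 25 µM bortezomib (-0.20) and 25 against 10 µM (-0.15). With quantile normalization signs turned for clpp-1 (-0.0569), lonp-1 (-0.0264) and spg-7 (-0.0895) in rpn-6 RNAi, lonp-1 (-0.0453) and spg-7 (-0.12) in 10 µM bortezomib, and ymel-1 in cantharidin (-0.19), 25 µM bortezomib (-0.0532) and 25 against 10 µM (-0.0660). With array weights ymel-1 in cantharidin was -0.0162. With 1 library left out, dnj-10 in 10 µM bortezomib ran from -0.0546 to 0.0374, spg-7 in 10 µM bortezomib from -0.00685 to 0.0572, ymel-1 in cantharidin from -0.0233 to 0.10, and ymel-1 in 25 against 10 µM from -0.0199 to 0.10. hsp-60 and Y22D7AL.10 kept their direction under every alternative run. Which scaling is right cannot be told from these files.

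Control, rpn-6 RNAi and 25 µM bortezomib share the replicate numbers 4 and 6. Deviations of same-numbered libraries from their group means had r of -0.16 and -0.13 for rpn-6 RNAi with control. For 25 µM bortezomib r was 0.05 and -0.26 with control and -0.11 and -0.05 with rpn-6 RNAi. Each group mean holds only 3 libraries, so these coefficients cannot tell whether same-numbered samples share more than a number. With a replicate block the calls numbered 4 in 2 groups and 3 over all libraries for rpn-6 RNAi, 5 and 3 for 25 µM bortezomib, and 3 and 3 for 25 µM bortezomib against rpn-6 RNAi. Starvation and cantharidin share the numbers 1 and 3 (r of -0.0226 and 0.00914); with the block atfs-1 in starvation against cantharidin was -0.98 in 2 groups (adjusted p = 0.312, not called) and -1.01 over all libraries (0.00215), against -1.02 without it. No paired analysis was possible for the other comparisons because their groups share fewer than 2 numbers.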
